A study of Mus musculus with 60 samples.

Results

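Cux1, Cux2, Rorb, Lmo4, Pou3f2, Pou3f3, Calb1, Rasgrf2 and Mef2c are genes used to mark upper-layer and intratelencephalic (IT) neurons of the cortex, and their levels are described here across 10 groups of libraries. All 9 were found by gene name among the 55414 genes of the deposited table, from a list of names. The mice, of the inbred strain DBA2/J, expressed ribosomal protein L10a with a GFP tag, and their medial prefrontal cortex (mPFC) was sampled. IP libraries hold RNA pulled down with an anti-GFP antibody and are labelled aPVT projector, while Input libraries are labelled as bulk mPFC with no antibody. In each fraction there were 6 libraries of SA, SA:ANH, ANH, RES and NS, 60 libraries in all. The labels give the first 4 as subtypes, do not spell any of the names out, and give neither age nor what drives the tag. The series describes 5 days of social defeat, a stress in which a mouse meets an aggressor, without saying which groups went through it. The labels do not say that the 6 libraries of a group are separate animals, so the p-values measure only the spread between libraries, which may be technical.

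The upper cortical layers hold mostly IT neurons, which send their axons to other parts of the cortex and the striatum and not to the brainstem or thalamus. Neurons that leave the telencephalon sit mainly in layer 5 as extratelencephalic (ET) neurons and in layer 6 as corticothalamic (CT) neurons. The transcription factors that build the upper layers stay on in the adult and serve as layer markers. Several of them are also found in other neurons, so their levels here do not by themselves name the cells. Cux1, Cux2, Pou3f2, Pou3f3, Rorb and Mef2c encode transcription factors, Lmo4 a cofactor, Calb1 a calcium-binding protein and Rasgrf2 an activator of Ras.

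Library totals ranged from 19078906 to 27073413 counts, and the lowest count of any of the 9 genes in a library was 66, for Pou3f2. Rpl10a, the gene of the tagged protein, was 2.28 ± 0.03 higher in IP than in Input as a log2 fold change with its SE (edgeR, adjusted p = 3.3e-59). The excitatory marker Slc17a7, a vesicular glutamate transporter, was higher in IP (0.59 ± 0.02), and Gad1, which makes GABA, was far lower (-4.14 ± 0.06), as were the glial markers Mbp (-3.08 ± 0.02), Gfap (-4.37 ± 0.08) and Csf1r (-5.26 ± 0.11). Of 14 layer 5 ET markers 9 were higher and 4 lower in IP, with Bcl11b at 1.44 ± 0.03 and Fezf2 at 0.68 ± 0.03. Of 15 layer 6 CT and subplate markers 4 were higher and 11 lower, with Tle4 at -1.55 ± 0.05 and Foxp2 at -1.14 ± 0.13. The counts of both lists stand beside 32.8% of all genes tested that were higher in IP and 42.6% that were lower. In IP the summed level of 12 oligodendrocyte markers averaged 225 CPM in SA, 167 in SA:ANH, 737 in ANH, 1106 in RES and 290 in NS. Of these 12 markers, 10 rose in ANH and 10 in RES against NS, beside 3.02% and 2.25% of all genes tested, while 6 fell in SA and 7 in SA:ANH, beside 7.2% and 8.45%. CPM are counts scaled to the same library total, adjusted by a scaling factor for each library (TMM).

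Per kilobase of gene length, the 9 genes spanned a wide range. In IP, Mef2c averaged 217 CPM per kb and Lmo4 213, followed by Calb1 at 25.2, Rasgrf2 at 4.90, Cux2 at 4.61, Pou3f3 at 2.07, Cux1 at 1.30, Pou3f2 at 1.21 and Rorb at 1.02. Group means overlapped for neighbours in this order at both ends: Lmo4 lay between 171 and 246 CPM per kb in the IP groups and Mef2c between 207 and 230. Rasgrf2 (3.91 to 6.11) and Cux2 (3.79 to 5.55) also overlapped, as did Cux1 (1.08 to 1.51), Pou3f2 (0.882 to 2.05) and Rorb (0.784 to 1.44). In Input the highest level was that of Lmo4, 166 CPM per kb, with Mef2c at 82.6 and Calb1 at 29.8.

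**Figure D1:**
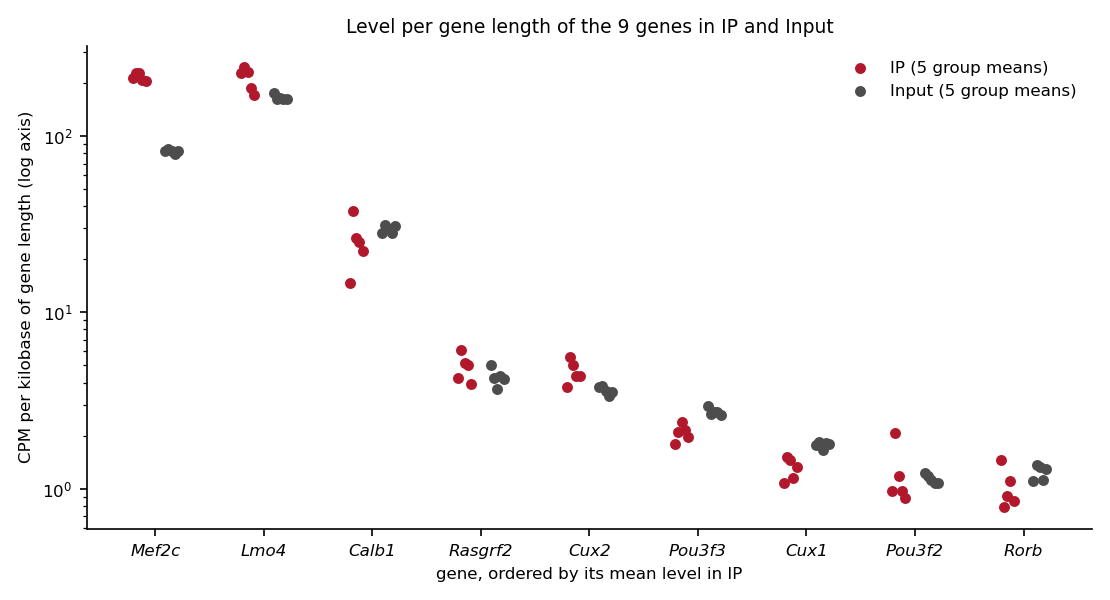
Level of each gene in CPM per kilobase of gene length (log axis), with IP group means in red left of Input group means in grey, 5 points each. Mef2c and Lmo4 stand at the top in both fractions, and Mef2c is the gene whose IP and Input points lie farthest apart.

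To ask which of these transcripts the pulldown carried, IP was compared with Input over all 60 libraries. Mef2c, Lmo4, Cux2 and Rasgrf2 were higher in IP, Cux1, Pou3f3, Rorb and Calb1 were lower, and Pou3f2 did not pass. Thus 8 of 9 passed, where 75.4% of the 18937 genes tested did, 32.8% higher and 42.6% lower. Mef2c, a MADS-box transcription factor common in excitatory neurons of the cortex (ENSMUSG00000005583.17, chromosome 13, 83652153 to 83815199, plus strand), averaged 1364 ± 93.6 CPM in IP and 518 ± 23.9 CPM in Input (SD, n = 30 each). Its log2 fold change was 1.39 ± 0.02 (adjusted p = 2.36e-58), and no IP library overlapped an Input library. Microglia also use Mef2c, and the 12 microglia markers summed to group means of 29.2 to 33.9 CPM in IP against 584 to 646 CPM in Input. Lmo4 stood at 0.35 ± 0.03 (adjusted p = 2.37e-15), Cux2 at 0.34 ± 0.04 (adjusted p = 1.16e-10) and Rasgrf2 at 0.18 ± 0.04 (adjusted p = 0.000181). Cux1 was the lowest relative to Input, at -0.45 ± 0.06 (adjusted p = 3.29e-10), then Pou3f3 at -0.40 ± 0.05, Rorb at -0.31 ± 0.07 and Calb1 at -0.30 ± 0.03. These values stand against a median of -0.08 over all genes. Pou3f2 stood at 0.02 ± 0.08 (adjusted p = 0.831), a sign that turned with RLE scaling and with DESeq2. Calb1 and some of the other genes are also made by inhibitory neurons, and all 15 inhibitory markers were lower in IP (median -3.76). The part of inhibitory neurons or microglia in the values of the 9 genes was not tested.

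For several genes this ratio was not the same in every group. The mean Rorb level in IP over that in Input was 1.31 in SA, 0.579 in SA:ANH, 0.687 in ANH, 0.999 in RES and 0.657 in NS. For Calb1 it was 0.517 in SA, 1.20 in SA:ANH, 0.898 in ANH, 0.881 in RES and 0.719 in NS, and for Pou3f2 it was 1.75 in SA:ANH and 0.791 to 1.054 in the other groups. The ratio for Mef2c kept to 2.51 to 2.75 in all 5 groups.

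Each subtype was then set against NS within IP, which asks how the RNA pulled down differed between the groups. In SA:ANH, 6 of the 9 genes rose and 0 fell, namely Pou3f2, Calb1, Rasgrf2, Lmo4, Cux2 and Mef2c. This stands beside 19.7% of the 16670 genes tested that passed in that comparison, 11.3% of the tested genes being higher and 8.45% lower. In SA, Rorb and Lmo4 rose and Calb1 fell, 3 of 9 genes against 16.6% of all genes (9.39% higher, 7.2% lower). In ANH, Lmo4, Rasgrf2, Calb1 and Mef2c rose, 4 of 9 against 7.4% of all genes (3.02% higher, 4.37% lower). In RES Rasgrf2 rose, 1 of 9 against 4.36% (2.25% higher, 2.11% lower), or 0 of 9 without RES library 2. The median log2 fold change of the 9 genes was 0.38 in SA:ANH, 0.24 in ANH, 0.14 in RES and 0.07 in SA, where the medians over all genes were 0.01, 0.00, 0.01 and 0.02. The 4 comparisons share the NS libraries, and the 9 genes were chosen with earlier results of these data known. In such tissue samples, fewer cells of a type and less RNA per cell cannot be told apart.

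**Figure D2:**
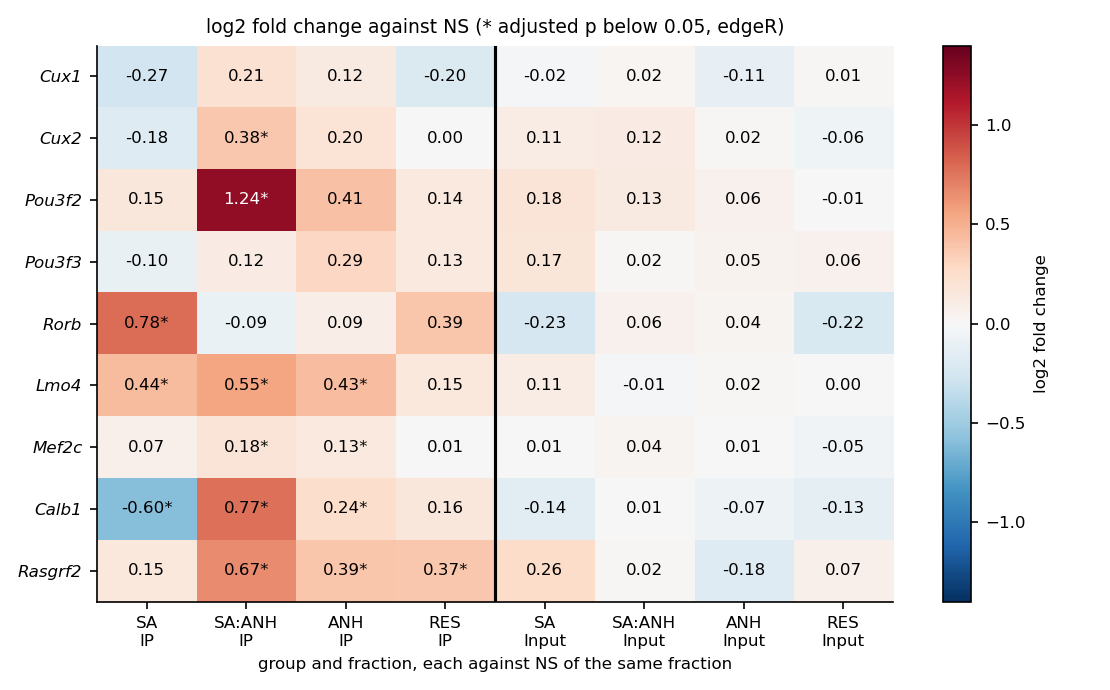
Log2 fold change of each gene (down the page) in each subtype against NS of the same fraction, IP on the left and Input on the right, with an asterisk where the adjusted p passed. In IP 14 of the 36 values passed, with Pou3f2 in SA:ANH at 1.24 the largest, and in Input 0 of 36 passed.

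Other measures, among them the oligodendrocyte sums given above, moved with these groups in IP, and their part in the results was not tested. The 15 inhibitory markers summed to 92.0 CPM in SA, 122 in SA:ANH, 178 in ANH, 189 in RES and 119 in NS, with Sp8 at 0 counts in all 6 SA:ANH libraries. Most of the 14 inhibitory markers tested did not pass against NS. In ANH 2 rose and in RES 2 rose, beside 3.02% and 2.25% of all genes tested. In SA 3 fell, beside 7.2%, and in SA:ANH 2 rose and 2 fell, beside 11.3% and 8.45%. The 14 layer 5 ET markers measured summed to 1757 CPM in SA, 1032 in SA:ANH, 1244 in ANH, 1449 in RES and 1653 in NS. Malat1, a nuclear noncoding RNA, averaged 933 ± 159 CPM in SA, 503 ± 140 in SA:ANH, 244 ± 47.5 in ANH, 323 ± 18.99 in RES and 241 ± 14.2 in NS (SD, n = 6 each). Mitochondrially encoded genes took 0.0379% to 0.0506% of the counts in SA libraries and 0.0241% to 0.0468% in SA:ANH, against 0.0177% to 0.0237% in NS.

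The cut homeodomain factors Cux1 and Cux2 mark layers 2 to 4 in the mouse. Cux2 (ENSMUSG00000042589.19, chromosome 5, 121994429 to 122188165, minus strand) had a lowest, median and highest IP level of 44.5, 46.5 and 55.1 CPM in SA:ANH, against 35.6, 38.5 and 40.3 CPM in NS. Every SA:ANH library lay above every NS library, and the log2 fold change was 0.38 ± 0.10 (adjusted p = 0.0037). In SA the levels were 30.1, 33.9 and 36.3 CPM, the lowest of the 5 groups, with a difference from NS of -0.18 ± 0.10 that did not pass (adjusted p = 0.242). ANH libraries (34.1, 45.2 and 50.9 CPM) and RES libraries (30.3, 38.8 and 44.7 CPM) overlapped NS, with adjusted p of 0.248 and 0.99. Cux1 (ENSMUSG00000029705.18, chromosome 5, 136276989 to 136596344, minus strand) overlapped between all groups. Its IP levels were 10.6, 13.5 and 18.7 CPM in SA, 12.7, 20.3 and 22.1 in SA:ANH, 15.4, 18.96 and 21.3 in ANH, 11.3, 14.2 and 19.2 in RES, and 12.998, 17.3 and 21.0 in NS. No difference of Cux1 from NS passed, and the test of any difference among the 5 groups gave an adjusted p of 0.0455. That p was 0.0506 with no filter on low counts and 0.0584 without RES library 2. The order of the mean levels was the same for both genes at its ends, with SA:ANH highest and SA lowest.

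The POU homeodomain factors Pou3f2 (Brn2) and Pou3f3 (Brn1) act together in making upper-layer neurons in the mouse. Pou3f2 passed against NS in SA:ANH, and Pou3f3 passed in none of the 4 subtypes, a difference between the genes that was not tested. Pou3f2 (ENSMUSG00000095139.3, chromosome 4, 22482780 to 22488366, minus strand) had IP levels of 9.15, 11.3 and 14.3 CPM in SA:ANH and 3.804, 5.15 and 5.38 CPM in NS (lowest, median and highest). The groups did not overlap, and the log2 fold change of 1.24 ± 0.19 was the largest of the 9 genes against NS (2.37-fold, adjusted p = 8.39e-06). In SA it had 3.70, 5.29 and 7.15 CPM, in ANH 5.03, 5.98 and 10.9, and in RES 3.17, 5.30 and 8.02. These groups overlapped NS, with log2 fold changes of 0.15 ± 0.19, 0.41 ± 0.19 and 0.14 ± 0.19 that did not pass (adjusted p = 0.675, 0.223 and 0.818). Pou3f3 (ENSMUSG00000045515.5, chromosome 1, 42734085 to 42742336, plus strand) had 10.7, 13.2 and 16.3 CPM in SA, 13.04, 16.1 and 16.6 in SA:ANH, 16.2, 17.1 and 21.3 in ANH, 9.66, 16.5 and 18.5 in RES, and 12.8, 14.5 and 16.9 in NS. Its log2 fold change in SA:ANH was 0.12 ± 0.12 with a 95% interval of -0.13 to 0.36, and it was the one gene of the 9 for which the test of any difference among the 5 groups did not pass (adjusted p = 0.106). Counts of Pou3f3 overlap those of the noncoding gene Gm20646 on the same strand, which held 1963 counts over the IP libraries and 2811 over the Input libraries.

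The 250 bases upstream of the start of Pou3f2 and Pou3f3, a related pair of which 1 passed in SA:ANH, and of Rasgrf2, which also passed there, are printed 5′ to 3′ from RefSeq on build GRCm38.p6. Capitals mark CCAAT boxes, the GC box GGGCGG and the E-box CACGTG on either strand.
Pou3f2, chr4:22488367-22488616, minus strand: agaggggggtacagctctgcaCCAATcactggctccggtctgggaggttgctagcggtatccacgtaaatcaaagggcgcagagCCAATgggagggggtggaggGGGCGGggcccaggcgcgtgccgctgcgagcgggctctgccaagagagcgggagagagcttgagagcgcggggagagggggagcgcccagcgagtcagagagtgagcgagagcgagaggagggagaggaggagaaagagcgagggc
Pou3f3, chr1:42695518-42695767, plus strand: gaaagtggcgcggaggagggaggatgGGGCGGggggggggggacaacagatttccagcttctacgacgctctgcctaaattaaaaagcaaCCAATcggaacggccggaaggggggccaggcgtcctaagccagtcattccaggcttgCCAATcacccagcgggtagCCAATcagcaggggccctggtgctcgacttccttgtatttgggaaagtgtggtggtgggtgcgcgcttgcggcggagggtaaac
Rasgrf2, chr13:92131829-92132078, minus strand: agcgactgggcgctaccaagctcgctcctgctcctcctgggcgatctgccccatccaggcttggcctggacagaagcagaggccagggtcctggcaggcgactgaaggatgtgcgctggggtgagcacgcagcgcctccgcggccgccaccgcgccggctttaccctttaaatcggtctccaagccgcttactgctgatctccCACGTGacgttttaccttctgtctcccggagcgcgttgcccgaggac
Both POU genes held CCAAT, with 2 matches in Pou3f2 and 3 in Pou3f3, and 1 match of GGGCGG each. Rasgrf2 held neither and had 1 CACGTG. Over the 32851 windows of this length in the RefSeq table, 33.8% held CCAAT, 32.7% GGGCGG and 6.02% CACGTG. The octamer ATGCAAAT, which POU factors bind (1.6% of windows) and the cAMP response element TGACGTCA (1.55%) were found in the windows of none of the 8 matched genes, while TATAAA (12.4%) was found for Cux2 and Mef2c. Calb1 had no entry. The sequences come from a build other than that of the count table's positions, and a match of letters is not a bound site.

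Rorb, Lmo4 and Mef2c are also regulators of transcription. Rorb, a nuclear receptor that marks layer 4 (ENSMUSG00000036192.16, chromosome 19, 18907969 to 19088560, minus strand), had 11.1, 13.6 and 15.8 CPM in SA, against 5.70, 7.16 and 11.2 CPM in NS. The lowest SA library lay just under the highest NS library, and the log2 fold change was 0.78 ± 0.18 (adjusted p = 0.00148). The other groups overlapped NS, with 6.12, 7.22 and 8.99 CPM in SA:ANH, 6.62, 7.85 and 11.5 in ANH, and 8.82, 9.16 and 15.8 in RES. Rorb was the only one of the 9 genes with a higher mean in SA than in all the other IP groups.

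Lmo4, a LIM-domain protein that binds transcription factors (ENSMUSG00000028266.18, chromosome 3, 143894291 to 143910981, minus strand), stood above NS in 3 subtypes. Its IP levels were 325, 380 and 448 CPM in SA, 377, 416 and 440 in SA:ANH, 373, 385 and 401 in ANH, 261, 325 and 339 in RES, and 264, 282 and 316 in NS. All SA, SA:ANH and ANH libraries lay above all NS libraries, and RES libraries overlapped them. The log2 fold changes were 0.44 ± 0.06 in SA (adjusted p = 9.61e-07), 0.55 ± 0.06 in SA:ANH (adjusted p = 9.78e-09) and 0.43 ± 0.06 in ANH (adjusted p = 6.41e-06). In RES the value was 0.15 ± 0.06 (adjusted p = 0.178), and without the libraries numbered 6 it was 0.21 with an adjusted p of 0.012. The noncoding gene Gm43445 overlaps Lmo4 on the same strand and held 513 counts over the IP libraries and 1059 over the Input libraries.

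Mef2c moved least among the genes that passed. It had 1259.6, 1328 and 1452 CPM in SA, 1325, 1407 and 1665 in SA:ANH, 1312, 1434 and 1539 in ANH, 1233, 1318 and 1351 in RES, and 1269.9, 1289 and 1353 in NS. All of these groups overlapped NS. Its log2 fold changes were 0.18 ± 0.04 in SA:ANH (1.13-fold, adjusted p = 0.00032) and 0.13 ± 0.04 in ANH (1.10-fold, adjusted p = 0.0166), and in SA and RES it stood at 0.07 ± 0.04 and 0.01 ± 0.04.

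Calb1, which encodes the calcium buffer calbindin (ENSMUSG00000028222.3, chromosome 4, 15881264 to 15908064, plus strand), moved in opposite directions in SA and SA:ANH. Its IP levels were 55.0, 59.96 and 75.4 CPM in SA, 143, 152 and 196 in SA:ANH, 103, 111 and 128 in ANH, 101, 106 and 110 in RES, and 88.0, 94.9 and 103 in NS. All SA libraries lay below, and all SA:ANH libraries above, those of the 3 other groups, while RES overlapped both ANH and NS. Against NS the log2 fold change was -0.60 ± 0.07 in SA (0.66-fold, adjusted p = 2.15e-08), 0.77 ± 0.07 in SA:ANH (1.70-fold, adjusted p = 4.47e-11) and 0.24 ± 0.07 in ANH (adjusted p = 0.0166). In RES it was 0.16 ± 0.07 (adjusted p = 0.171). Calbindin is also made by inhibitory neurons. Beside it the interneuron peptide gene Sst averaged 14.6 ± 1.41 CPM in SA, 37.4 ± 2.48 in SA:ANH, 57.2 ± 4.90 in ANH, 78.1 ± 5.13 in RES and 27.8 ± 1.90 in NS (SD, n = 6 each), an order in which SA is also lowest but RES and not SA:ANH is highest. Its part in the Calb1 result was not tested.

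Rasgrf2, a calcium-activated exchange factor for Ras that marks layers 2 and 3 in the mouse (ENSMUSG00000021708.19, chromosome 13, 92028519 to 92268164, minus strand), rose in SA:ANH and ANH, and in RES by a call that rested on 1 library. Its IP levels were 29.7, 33.7 and 35.0 CPM in SA, 39.8, 48.3 and 52.9 in SA:ANH, 33.9, 38.2 and 48.0 in ANH, 33.5, 38.2 and 52.4 in RES, and 26.98, 29.5 and 34.3 in NS. SA:ANH libraries lay above all NS libraries, and the other groups overlapped NS. The log2 fold changes were 0.67 ± 0.10 in SA:ANH (adjusted p = 3.64e-06), 0.39 ± 0.10 in ANH (adjusted p = 0.0102) and 0.37 ± 0.10 in RES (adjusted p = 0.0224), and 0.15 ± 0.10 in SA (adjusted p = 0.369). The highest RES library, number 2 at 52.4 CPM, stood apart from the other 5, and without it the RES value was 0.28 ± 0.09 and did not pass (adjusted p = 0.0986).

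**Figure D3:**
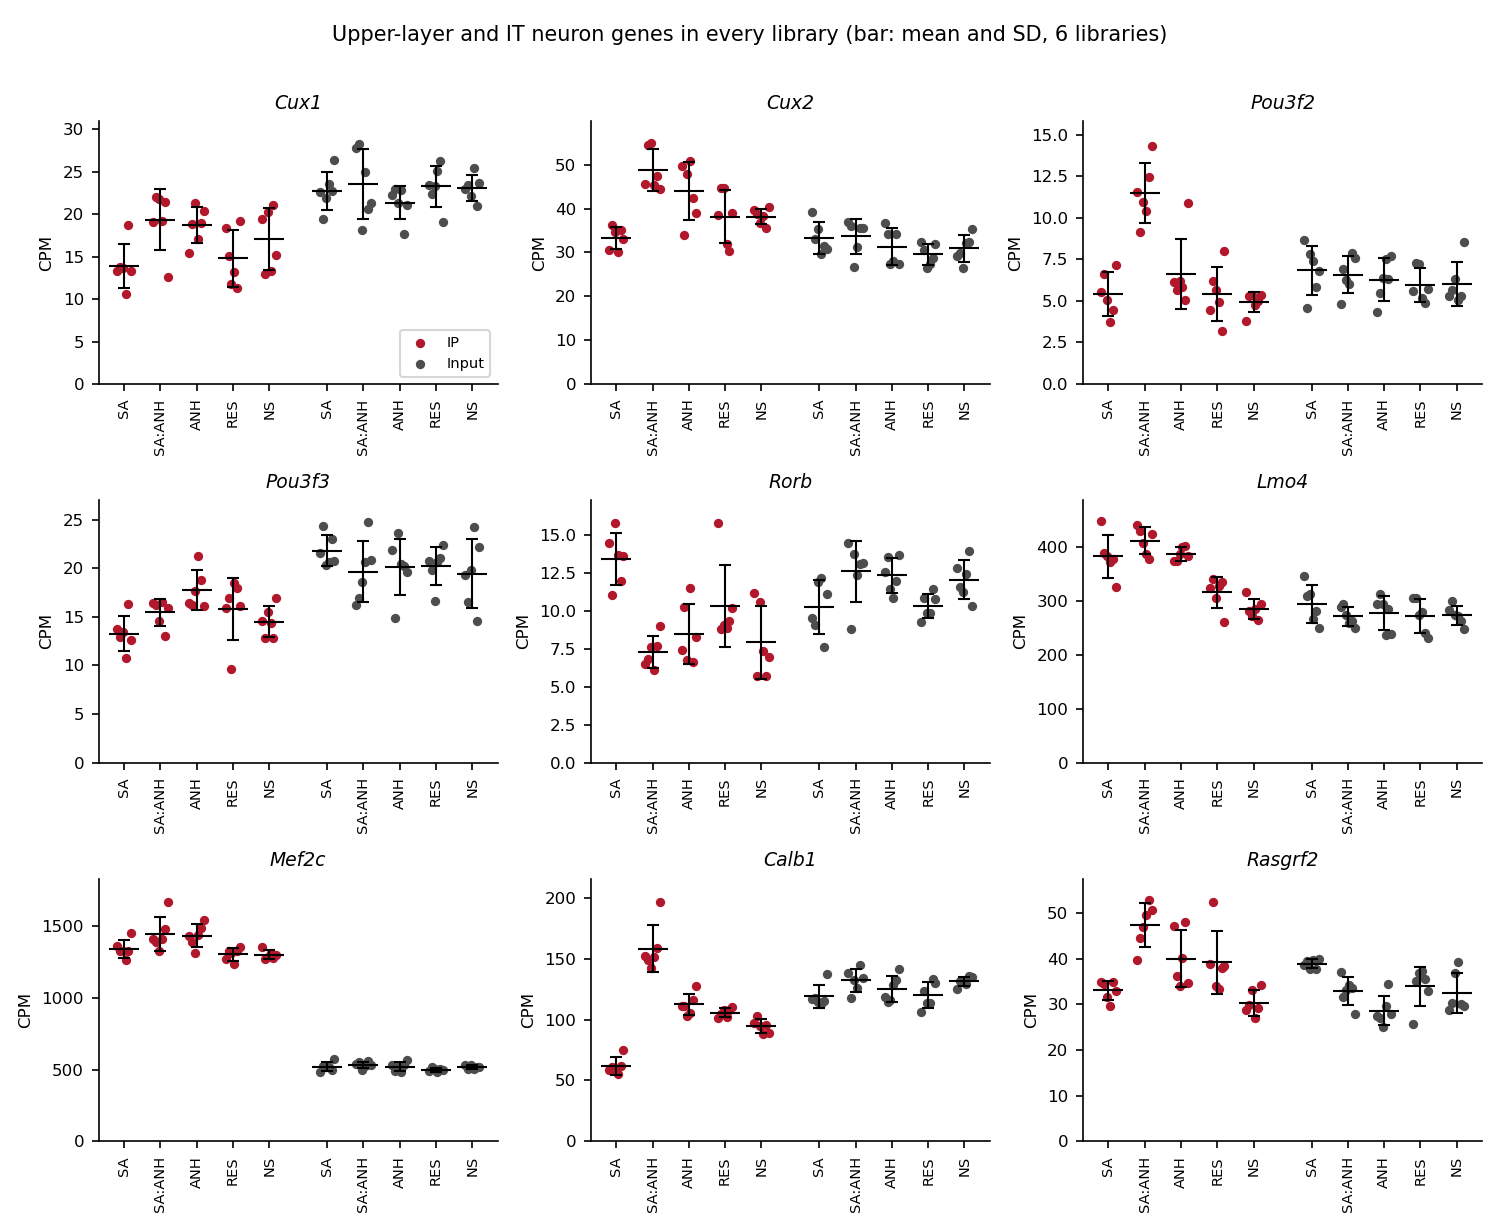
CPM of each gene in every library, IP groups (red) left of Input groups (grey), with a bar for the mean and its SD over 6 libraries. The SA:ANH IP libraries stand above the other IP groups for Calb1 and nearly so for Pou3f2, SA IP libraries stand lowest for Calb1, and the Input libraries of Rasgrf2 stand higher in SA than in ANH.

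In the bulk tissue the same genes were compared with NS in Input. There 0 of the 36 values passed with edgeR, and 4 of them had an unadjusted p under 0.05. DESeq2 called 1, Rasgrf2 in SA (0.26, adjusted p = 0.0499). Over all 18170 genes 2.83% passed in SA, 5.65% in SA:ANH, 2.62% in ANH and 3.23% in RES. The log2 fold changes of the 9 genes lay between -0.23 and 0.26, with SE between 0.04 and 0.17. The test of any difference among the 5 Input groups passed for Rasgrf2 (adjusted p = 0.00817), beside 12.9% of all genes, and in IP it passed for 8 of 9 genes beside 33.1%. In Input Rasgrf2 had 37.7, 39.1 and 39.9 CPM in SA, 27.9, 33.5 and 37.2 in SA:ANH, 25.1, 27.8 and 34.6 in ANH, 25.8, 35.4 and 37.3 in RES, and 28.8, 30.1 and 39.3 in NS. On average SA was the highest Input group and ANH the lowest for this gene. Pou3f2, by contrast with IP, had 4.82, 6.60 and 7.86 CPM in SA:ANH Input against 5.05, 5.49 and 8.55 CPM in NS Input, and Calb1 had 118, 133 and 145 CPM in SA:ANH Input against 125, 131 and 136 CPM in NS Input.

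A direct test asked whether the difference from NS was unlike in IP and in Input. In SA:ANH it passed for Pou3f2 (1.09 ± 0.26, adjusted p = 0.00166), Calb1 (0.74 ± 0.09, adjusted p = 1.11e-08), Rasgrf2 (0.62 ± 0.13, adjusted p = 0.000543) and Lmo4 (0.54 ± 0.10, adjusted p = 4.82e-05), 4 of 9 genes where 15.2% of all genes passed, 7.14% being higher. In SA it passed for Rorb (0.99 ± 0.21, adjusted p = 0.000757), Lmo4 (0.32 ± 0.10, adjusted p = 0.0317) and Calb1 (-0.48 ± 0.09, adjusted p = 0.00018), beside 9.05% of all genes. In ANH it passed for Rasgrf2 (0.58 ± 0.14, adjusted p = 0.00621), Lmo4 (0.42 ± 0.10, adjusted p = 0.00723) and Calb1 (0.32 ± 0.09, adjusted p = 0.0331), beside 3.62%, with 1.77% higher. In RES 0 of 9 passed, beside 2.69%, with Calb1 at 0.29 ± 0.09 (adjusted p = 0.0685), a value that passed with DESeq2, with the compared libraries alone and without the libraries numbered 6 (adjusted p = 0.0326, 0.0132 and 0.0179). For Cux2 and Mef2c, which rose in SA:ANH in IP, the difference between the fractions did not pass (0.23 ± 0.13 and 0.11 ± 0.05, adjusted p = 0.268 and 0.183).

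**Figure D4:**
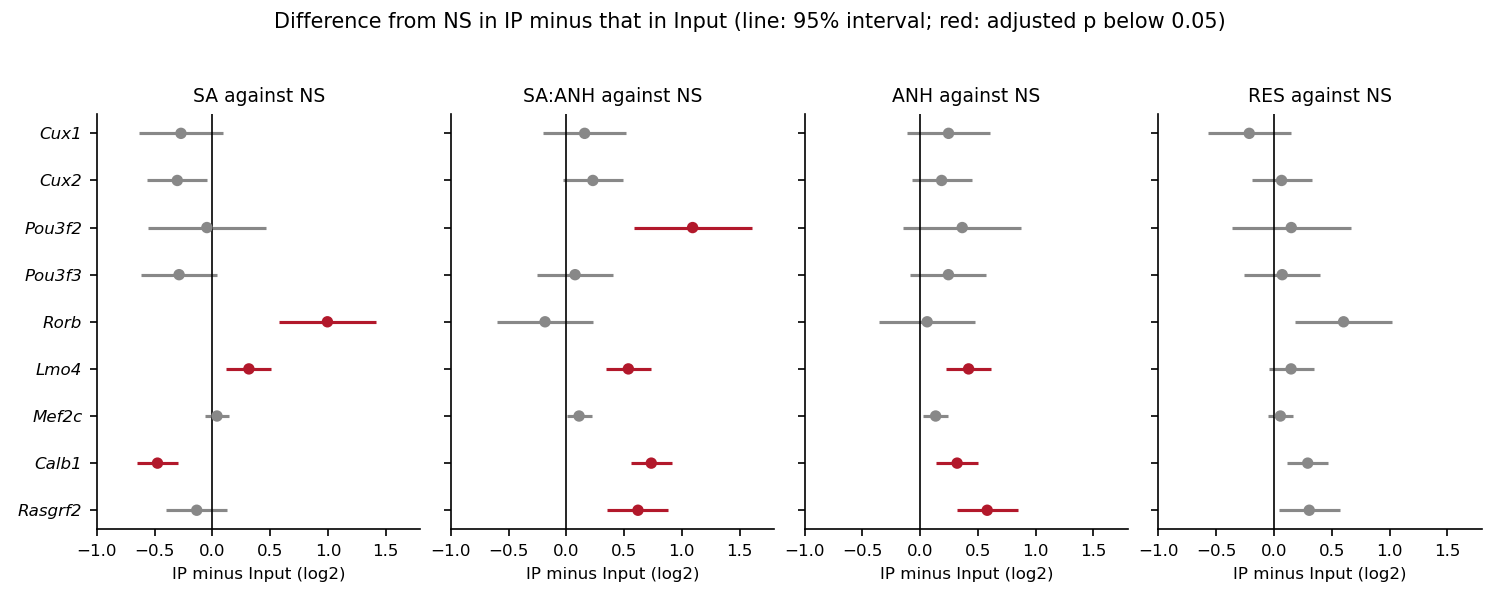
Difference from NS in IP minus that in Input for each gene and subtype (log2), with approximate 95% intervals and red for an adjusted p under 0.05. In SA:ANH the values of Pou3f2, Calb1, Rasgrf2 and Lmo4 lie above 0, and in SA Rorb and Lmo4 lie above 0 and Calb1 below.

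The subtypes were also compared with each other in IP. SA:ANH against SA gave 7 of 9 genes past the test, where 9.53% of all genes passed. Calb1 was higher in SA:ANH by 1.36 ± 0.07 (2.57-fold, adjusted p = 3.83e-17), Pou3f2 by 1.09 ± 0.19, Cux2 by 0.55 ± 0.10, Rasgrf2 by 0.52 ± 0.10, Cux1 by 0.48 ± 0.15 and Mef2c by 0.11 ± 0.04, and Rorb stood at -0.88 ± 0.18 (adjusted p = 0.000593). The Cux1 and Mef2c calls were near the threshold (adjusted p = 0.0399 and 0.0478) and were lost with no filter on low counts. Against ANH, SA:ANH was higher for Calb1 (0.53 ± 0.06), Pou3f2 (0.83 ± 0.19) and Rasgrf2 (0.27 ± 0.10), 3 of 9 beside 17.9% of all genes (10.8% higher), and the Rasgrf2 call (adjusted p = 0.0482) was lost with RLE scaling, with no filter on low counts, with the compared libraries alone and without the libraries numbered 6, with adjusted p of 0.068, 0.0984, 0.0787 and 0.258. Against RES, SA:ANH was higher for Pou3f2 (1.10 ± 0.19), Calb1 (0.60 ± 0.06), Lmo4 (0.40 ± 0.06), Cux2 (0.37 ± 0.10), Rasgrf2 (0.29 ± 0.10) and Mef2c (0.17 ± 0.04), 6 of 9 beside 13.8% (8.21% higher). The Rasgrf2 call (adjusted p = 0.04) was lost in the same 4 alternatives, with adjusted p of 0.058, 0.082, 0.0801 and 0.147. Rorb passed with DESeq2 (0.0409) and Cux1 without the libraries numbered 6 (0.0123). SA against ANH passed for 4 of 9 genes beside 23%, with Rorb at 0.69 ± 0.18, Calb1 at -0.84 ± 0.07, Pou3f3 at -0.39 ± 0.13 and Cux2 at -0.37 ± 0.10. There Cux1 passed with RLE scaling, DESeq2 and the compared libraries alone (adjusted p = 0.0478, 0.0355 and 0.0243), Rasgrf2 passed with DESeq2 and without the libraries numbered 6 (0.0394 and 0.0477), and Mef2c passed without those libraries (0.0215). SA against RES passed for Lmo4 (0.30 ± 0.06) and Calb1 (-0.76 ± 0.07), 2 of 9 beside 11.6%, and ANH against RES for Lmo4 (0.28 ± 0.06) and Mef2c (0.13 ± 0.04), 2 of 9 beside 9.21% (3.78% higher). These comparisons share libraries with each other and with those against NS.

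Of 24 other genes used to mark upper-layer and IT neurons, 15 were higher in IP than in Input and 6 lower (median 0.36), beside 32.8% and 42.6% of all genes. Inhba, a subunit of activin, stood at 2.09 ± 0.07, Etv1, an ETS factor of layer 5 IT neurons, at 0.89 ± 0.03 and the cadherin Cdh13 at 0.59 ± 0.02, while the growth factor Ptn stood at -1.06 ± 0.02. Against NS these genes did not move in 1 direction. In SA 2 rose and 11 fell (median -0.19), beside 9.39% and 7.2% of all genes, with Inhba at -0.95 ± 0.10, Matn2, a matrix protein, at -0.79 ± 0.10, the LIM homeodomain factor Lhx2 at -0.53 ± 0.07 and Mdga1 at -1.45 ± 0.21. In SA:ANH 8 rose and 6 fell (median 0.02), beside 11.3% and 8.45%, with Ptn at 0.54 ± 0.05, the adhesion gene Nectin3 at 0.63 ± 0.11, Cdh13 at -0.38 ± 0.04 and Inhba at -0.58 ± 0.10. In ANH 4 rose and 4 fell (median -0.01), beside 3.02% and 4.37%, with the Wnt enhancer Rspo2 at 0.95 ± 0.13, Dkk3 at 0.17 ± 0.03, Lamp5 at -0.36 ± 0.03 and Inhba at -0.54 ± 0.10. In RES 3 rose and 6 fell (median 0.02), beside 2.25% and 2.11%, with Ptn at 0.31 ± 0.05, Dkk3 at -0.19 ± 0.03, Lamp5 at -0.29 ± 0.03 and Inhba at -0.55 ± 0.10.

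The markers of neurons that leave the telencephalon were mostly lower in SA:ANH than in NS. Of 12 layer 5 ET markers tested there in IP, 0 rose and 11 fell (median -0.64), beside 8.45% of all genes that fell, with Bcl11b at -1.13 ± 0.07 (90.3 ± 7.69 CPM in SA:ANH against 201 ± 7.16 in NS, SD, n = 6 each), the neurofilament gene Nefm at -0.77 ± 0.06 and Fezf2 at -0.52 ± 0.05. Of 13 layer 6 CT and subplate markers 0 rose and 7 fell (median -0.57), with Nr4a2 at -1.37 ± 0.17, Rprm at -0.71 ± 0.10 and Tle4 at -0.58 ± 0.15. In SA 5 of the 12 layer 5 markers rose and 3 fell (median 0.11), with Fezf2 at 0.48 ± 0.05, Tox at 0.40 ± 0.06 and Bcl11b at -0.29 ± 0.07. In ANH 0 rose and 8 fell (median -0.42), beside 4.37% of all genes that fell, and in RES 0 rose and 4 fell (median -0.25), beside 2.11%. Of the 13 layer 6 markers 1 rose and 4 fell in SA (median -0.34), where 9.39% and 7.2% of all genes did, 0 rose and 4 fell in ANH (median -0.26), and 0 rose and 5 fell in RES (median -0.23). Crym is in both the layer 5 and the layer 6 list, so their counts and sums are not fully separate. The lists were not tested against each other.

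**Figure D5:**
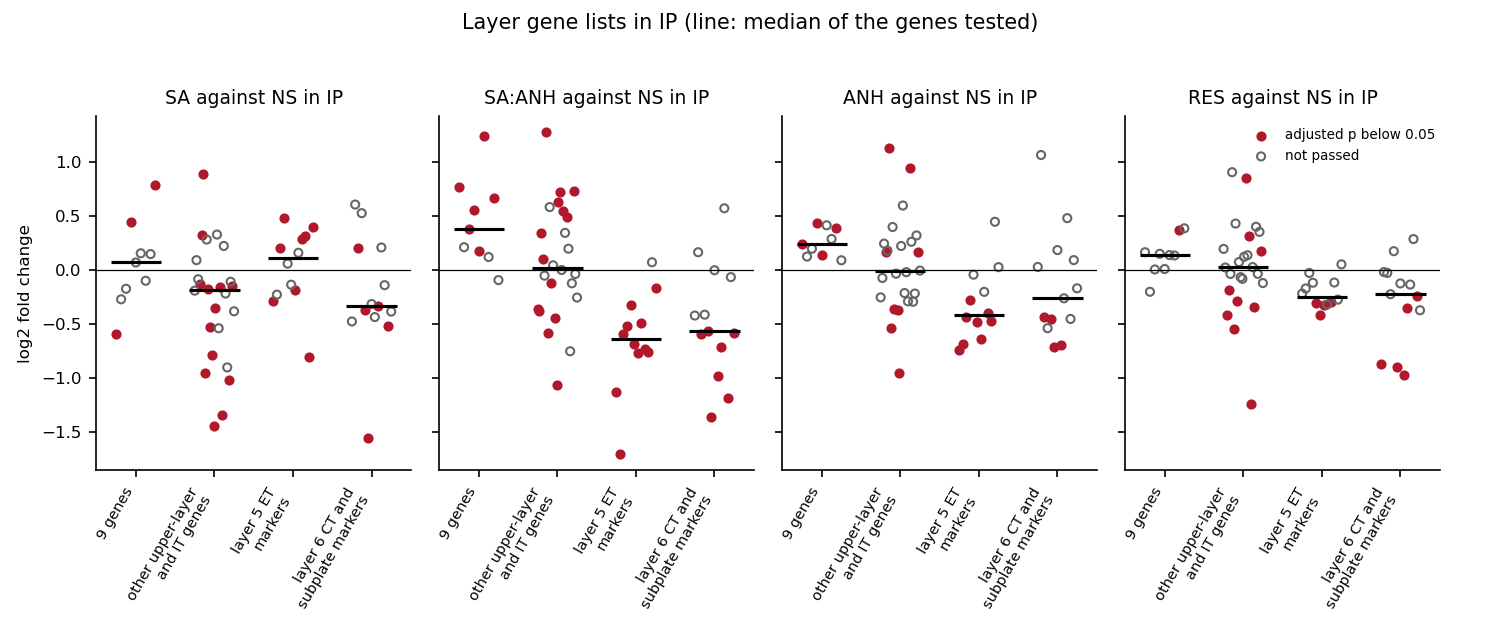
Log2 fold change against NS in IP of the genes of 4 lists in each subtype, filled red where the adjusted p passed, with the median as a line. In SA:ANH the median of the 9 genes is 0.38 and that of the 24 other upper-layer and IT genes is 0.02. Those of the layer 5 ET and layer 6 lists are -0.64 and -0.57.

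At the median over the IP groups, the libraries of a group differed by more than counting error for every gene. This did not hold in every single group: Rasgrf2 in SA Input (37.7 to 39.9 CPM) varied less than counting alone gives. The coefficient of variation between IP libraries of a group was at the median 4.70% for Mef2c and 6.43% for Lmo4, the most abundant of the 9, and 24.1% for Pou3f2 and 23.6% for Rorb, the least. For Pou3f2 this was 2.69 times, and for Mef2c 8.28 times, the value that counting alone gives. The libraries numbered 6 recurred at the ends of their groups. They held the highest value in 7 of 10 groups for Pou3f2 and in 6 for Calb1 and Mef2c, and the lowest in 6 of 10 for Lmo4. Malat1 was also highest in them in 7 of 10 groups. Without them every member call against NS in IP was kept.

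By the measure of Pearson's r of log2 CPM over the 30 IP libraries, the closest genes were Nrn1 and Nrep for Calb1 (0.91 both), Gng3 and Dkkl1 for Lmo4 (0.84 and 0.82), Arpp19 and Pradc1 for Pou3f2 (0.82 both) and Arpp21 and Inka2 for Rasgrf2 (0.81 and 0.78). For Cux2 they were Ly6e and Epop (0.81 and 0.80), for Rorb Rsrp1 and Ncam2 (0.73 and 0.70), and for Cux1 Olfm2 and Zfhx4 (0.73 and 0.69). For Pou3f3 they were the processed pseudogenes Gm6736 and Gm9294 (0.71 both). These values describe 16670 genes in libraries that share groups and depth, and none of the 9 was the closest gene of another.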

How the data were processed

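Bulk and anti-GFP pulldown RNA of mPFC was, per the labels' protocols, prepared with SMART-Seq v4 and TruSeq v2 kits and read from both ends over 100 bases. Per the submitters' processing notes, the tools were TopHat2 2.0.13, Bowtie2 2.2.3 and Trimmomatic 0.32, and the build was mm10. The authors deposited 1 table of estimated counts per gene, not normalized, of which 88.4% of values were whole numbers (within 1e-06). The counting tool, its strand setting and how it treated reads that match several places were not given in the sources used here, so overlapping genes cannot be told apart. Positions are the table's own. They are not those of mm10 (1 of the 9 genes has the same start there), and its build is not named.

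Counts were rounded and tested with edgeR 4.0.16 in R 4.3.3 (TMM factors, filterByExpr with a count minimum of 10, quasi-likelihood test, Benjamini-Hochberg over all genes tested at 0.05). The 30 IP libraries (16670 genes), the 30 Input libraries (18170 genes) and all 60 (18937 genes) were fitted separately. An adjusted p in the text is from these fits unless another tool is named, and ± on a log2 fold change is its SE. CPM use the TMM factors of the fit of 60 libraries. The log2 CPM behind the correlations use the TMM factors of the fit of the libraries concerned, with a prior count of 2. The alternatives were RLE factors, DESeq2 1.42.0, no filter, a replicate block and the compared libraries alone. Leaving out the libraries numbered 6, or RES library 2 of IP, was chosen after seeing the data.

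The 9 genes and all gene lists were chosen with earlier results of these data known. All 9 are described in every comparison. From the list of other upper-layer and IT genes, up to 4 with the smallest p in a comparison are named, and up to 2 from other lists, with the defining markers of other cell types, the layer markers Bcl11b, Fezf2, Tle4 and Foxp2, Rpl10a, Malat1 and the 2 genes most correlated with each member, which for Mef2c are not reported here. Promoter windows are RefSeq's on GRCm38.p6, with 8 of 9 genes matched. The labels give the replicate numbers no meaning, and libraries of the same number were not treated as pairs.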

Additional observations from a re-analysis of the deposited data

Results flagged for a closer look

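In 90 groups of 6 libraries (9 genes in 10 groups), 10 had 1 library whose gap to its nearest neighbour passed Dixon's 95% critical value for the share of the group's range, where chance gives about 1 in 20. In 6 of the 10 that library was number 6. For Calb1 it was the highest in SA IP at 75.4 CPM (the next was 62.2), in SA:ANH IP at 196 CPM (next 159) and in SA Input at 138 CPM (next 118). For Pou3f2 it was the highest in ANH IP at 10.9 CPM (next 6.19) and in NS Input at 8.55 CPM (next 6.34), and for Cux1 it was the lowest in SA:ANH IP at 12.7 CPM (next 19.1). In the remaining 4 groups other libraries stood apart. Rorb had 15.8 CPM in RES IP library 1 (next 10.1), and Rasgrf2 had 52.4 CPM in RES IP library 2 (next 38.8). Pou3f3 had 9.66 CPM in RES IP library 3 (next 15.95), and Cux1 had 17.7 CPM in ANH Input library 5 (next 21.1).

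The difference from NS was unlike in IP and Input, by the interaction test of edgeR, in 10 cases. On the log2 scale, IP minus Input, these were Rorb at 0.99, Lmo4 at 0.32 and Calb1 at -0.48 in SA. In SA:ANH they were Pou3f2 at 1.09, Calb1 at 0.74, Rasgrf2 at 0.62 and Lmo4 at 0.54, and in ANH Rasgrf2 at 0.58, Lmo4 at 0.42 and Calb1 at 0.32. The oligodendrocyte and inhibitory marker sums, Malat1 levels and mitochondrial shares given beside the IP results also differed between these groups, and their part was not tested.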

How the results depend on the processing

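Over all alternatives, 1092 of 1152 values of the 9 genes kept their direction and their side of the threshold, 19 lost and 16 gained a call, and 25 changed sign. None of the 25 passed. They were, in IP, RES against NS for Cux2 (-0.0040 with the replicate block, -0.0035 with the compared libraries alone, -0.043 without RES library 2, against 0.014 with its sign kept without the libraries numbered 6) and Mef2c (-0.0013 without the libraries numbered 6, against 0.0074 with its sign kept without RES library 2), SA against ANH for Lmo4 (-0.0040 with RLE and with DESeq2, -0.0043 with no filter, -0.012 with the compared libraries alone), and SA against RES for Pou3f2 (-0.00054 with RLE, -0.0013 with DESeq2) and Cux1 (0.018 without the libraries numbered 6, against -0.074 with its sign kept without RES library 2). In Input they were SA against NS for Mef2c (-0.026 without the libraries numbered 6), SA:ANH against NS for Calb1 (-0.0026 with the compared libraries alone), ANH against NS for Rorb (-0.040) and Mef2c (-0.020) without the libraries numbered 6, and RES against NS for Lmo4 (-0.0038 with RLE and with DESeq2, -0.0037 with the replicate block, -0.0018 with the compared libraries alone) and Pou3f2 (0.0039 with the replicate block, 0.13 without the libraries numbered 6). For Pou3f2, IP against Input stood at -0.025 with RLE, -0.026 with DESeq2 and -0.028 without the libraries numbered 6, and the RES difference of IP minus Input at -0.11 without them. DESeq2 called more genes in Input against NS, 808 in SA (515 with edgeR), 728 in ANH (476) and 902 in RES (587). The cause was not tested.

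Against NS in IP, the 1 call that was lost was Rasgrf2 in RES, without RES library 2. The IP minus Input difference of Calb1 in ANH was lost with no filter (adjusted p = 0.0631), and that in RES passed with DESeq2, with the replicate block, with the compared libraries alone and without the libraries numbered 6 (adjusted p = 0.0326, 0.0066, 0.0132 and 0.0179). The Mef2c call of SA:ANH against SA was lost in 3 alternatives and that of ANH against RES in 1. The replicate block left 182 of 189 values with both their direction and their side of the threshold, and 3 changed sign. It lost the calls of Rasgrf2 in SA:ANH against ANH (adjusted p = 0.05002) and of Cux1 among the 5 IP groups (0.051). It also gained Calb1 among the 5 Input groups (0.0417). The correlation of deviations between libraries of the same number averaged 0.0041 in IP, 0.0155 in Input and 0.0097 between IP and Input over all genes, and 0.0673, 0.0759 and 0.0967 over the most abundant 25% of genes, with some pairs below 0 in each. Over all genes a library's best match had its own number for 5 of 30 in IP, about what chance gives with 6 numbers. It did so for 12 of 30 in Input and 12 of 30 between IP and Input. Over the most abundant 25% of genes these counts were 9 of 30 in IP, 12 in Input and 11 between IP and Input. The counts above 5 are a hint from the data that the numbers may share something, which the labels do not name. At the counts of Pou3f2, the lowest of the 9, SE between 0.17 and 0.19 limit what can be seen.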
